A study of Homo sapiens with 8 samples.

Results

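The transcription factors that set lung and foregut identity were examined by the acetylation of the chromatin around their genes. The 8 genes were NKX2-1, FOXA1, FOXA2, GATA6, SOX2, SOX9, TP63 and HNF4A, and they were taken by symbol. Peaks of all 6 libraries were merged into regions wherever they overlapped by 1 bp or more, which gave 49186 regions. The regions that overlapped the body of one of the 8 genes or the 50 kb on either side of it were kept. This left 40 regions, none of them near NKX2-1.

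The cells were A549, an established human lung adenocarcinoma line with a KEAP1 mutation, which keeps NRF2 active in untreated cells and is shared by all 6 libraries. KEAP1 is the protein that marks NRF2 for degradation, and NRF2 is the transcription factor that drives antioxidant and detoxification genes. Chromatin was immunoprecipitated with an antibody against H3K27ac, histone H3 acetylated at lysine 27, after transfection of control siRNA (3 libraries) or NRF2 siRNA (3 libraries) and harvest at 48 hours. NRF2 was targeted with 2 siRNAs, number 28 in replicate 1 and number 30 in replicates 2 and 3, so that siRNA and replicate cannot be told apart in replicate 1. The experiment used a single line, and peak lists measure neither NRF2 mRNA nor the RNA of the lineage factors, so that the depletion of NRF2 could not be checked in them. All values refer to the human genome build hg19 (GRCh37).

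H3K27ac lies on nucleosomes beside active promoters and enhancers, and its absence from a promoter is usual for a silent gene. The 8 factors divide the endoderm and its epithelia among them. NKX2-1 directs lung and thyroid development and keeps alveolar cells in their lineage. FOXA1 and FOXA2 are forkhead pioneer factors of gut-derived organs, and GATA6 works beside them in early endoderm. SOX2 marks the proximal airway and oesophagus, SOX9 marks the tips of the growing lung, and TP63 maintains basal and squamous cells. HNF4A is a nuclear receptor of liver, intestine and stomach, and lung adenocarcinomas that lose NKX2-1 are known to take up such gastric and hepatic features.

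The sequences just before the coding starts are shown first, because the starts turned out to differ in acetylation while all of them belong to lineage regulators. Each line gives the 120 bases before the outermost start of a group, read 5′ to 3′ on the strand of the gene, and capitals mark each CG dinucleotide.
NKX2-1, chr14:36990355-36990474, minus strand: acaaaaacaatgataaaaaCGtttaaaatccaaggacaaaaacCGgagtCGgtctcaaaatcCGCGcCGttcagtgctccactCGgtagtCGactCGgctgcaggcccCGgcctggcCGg
FOXA1, chr14:38064455-38064574, minus strand: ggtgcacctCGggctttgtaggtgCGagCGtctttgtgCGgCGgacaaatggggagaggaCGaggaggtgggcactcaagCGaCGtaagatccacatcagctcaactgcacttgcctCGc
FOXA2, chr20:22566094-22566213, minus strand: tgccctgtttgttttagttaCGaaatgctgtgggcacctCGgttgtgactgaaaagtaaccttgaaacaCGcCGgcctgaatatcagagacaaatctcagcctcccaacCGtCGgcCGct
SOX2, chr3:181429593-181429712, plus strand: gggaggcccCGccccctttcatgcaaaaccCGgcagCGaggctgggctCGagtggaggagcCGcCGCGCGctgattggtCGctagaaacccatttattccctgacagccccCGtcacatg
TP63 TA, chr3:189349058-189349177, plus strand: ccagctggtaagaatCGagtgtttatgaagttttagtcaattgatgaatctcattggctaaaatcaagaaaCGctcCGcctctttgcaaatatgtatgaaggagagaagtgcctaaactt
TP63 ΔN, chr3:189507328-189507447, plus strand: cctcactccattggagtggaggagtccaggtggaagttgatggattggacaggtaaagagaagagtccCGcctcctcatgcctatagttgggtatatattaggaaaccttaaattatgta
HNF4A P2, chr20:42984219-42984338, plus strand: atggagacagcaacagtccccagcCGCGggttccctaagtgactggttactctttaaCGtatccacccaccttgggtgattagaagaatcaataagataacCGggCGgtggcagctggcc
HNF4A P1, chr20:43029759-43029878, plus strand: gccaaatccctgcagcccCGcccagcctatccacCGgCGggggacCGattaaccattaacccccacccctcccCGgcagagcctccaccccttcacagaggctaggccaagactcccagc

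The NKX2-1 stretch held 11 CG dinucleotides and the SOX2 stretch 10. FOXA1 held 9, FOXA2 and the start of GATA6 (sequence not shown) held 7, and both starts of HNF4A held 5. SOX9 (sequence not shown) and the TA start of TP63 held 3, and the ΔN start held 1. The SOX9 start lay under a peak in 3 of 3 control and 3 of 3 NRF2 siRNA libraries. Over the outermost starts of 19807 coding genes the median was 8. It was 11 for the 7987 starts that lay in a region called in all 3 control libraries and 4 for the 9949 starts that lay in no region. NKX2-1 thus had as many CG dinucleotides as the median acetylated start, yet no peak lay over it in any library. It was not alone in that, since 31.8% of the 7818 starts with at least its number of CG dinucleotides lay in no region.

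The lists of peaks differed in length, which bears on every absence given here. They held 27941, 34747 and 41571 peaks in the control libraries and 23885, 34986 and 39108 peaks in the NRF2 siRNA libraries. The replicate 1 libraries had the shortest lists in both groups and, per the study's reporting summary, the fewest reads. Of the 40 regions, control replicates 1 to 3 called 26, 33 and 35, and NRF2 siRNA replicates 1 to 3 called 19, 32 and 35. A region missing from a replicate 1 library was therefore not detected in that list, which does not make it absent. Strength was expressed as a percentile, the share of a library's own peaks whose fold enrichment over background was at or below that of the region.

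The 40 regions were 267 to 11425 bp wide, with a median of 2249 bp against 1699 bp over all regions. All 6 libraries called 18 of them, 1 library alone called 4, and fewer than 3 libraries called 7. Over the whole series 34.2% of regions were called in all 6 libraries. When both HNF4A start regions are counted, 8 regions lay over a coding start of a lineage factor, 12 lay in introns (2 of them of MIPOL1, beside FOXA1) and 14 lay outside coding genes. The starts of 2 other genes, FITM2 and TTPAL, fell inside the HNF4A window.

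**Figure D1:**
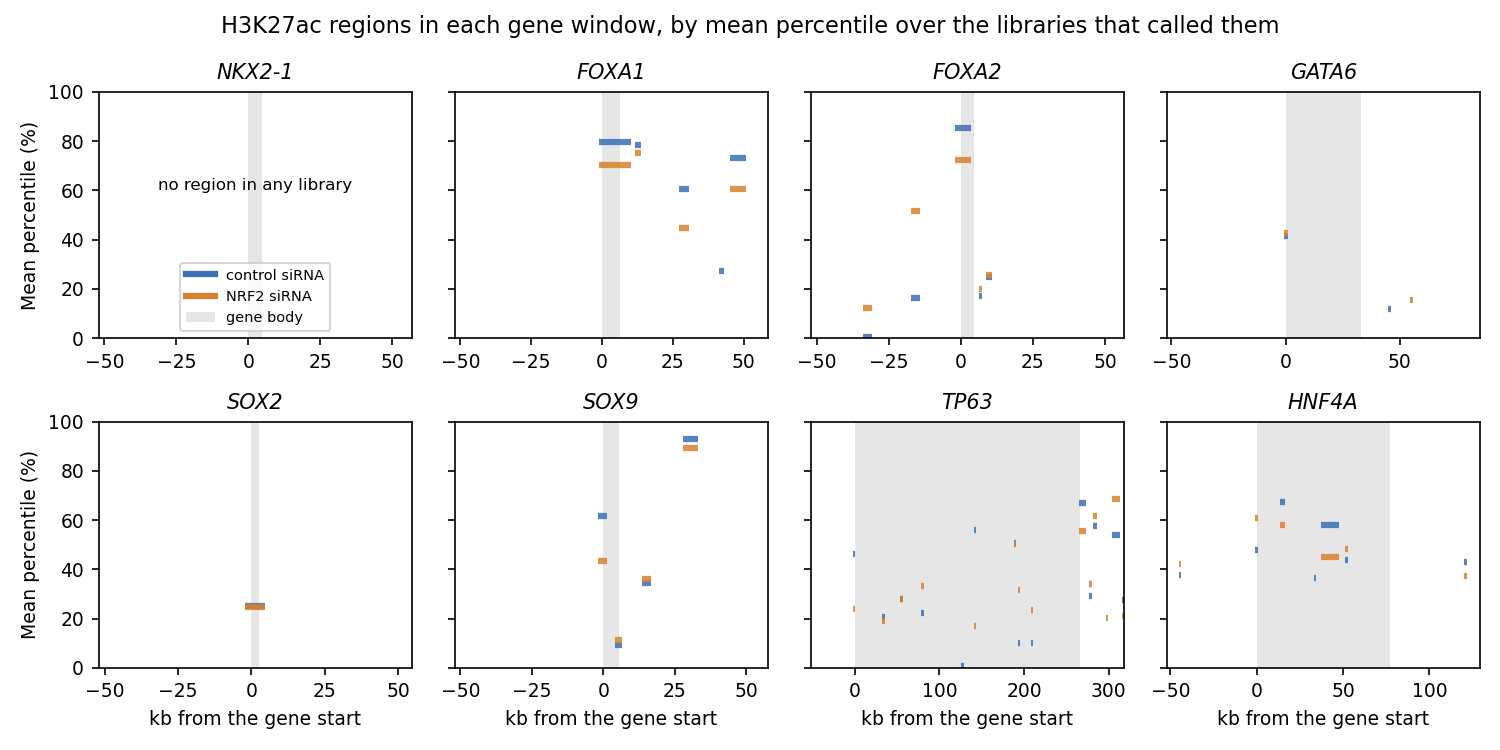
Mean percentile of each region (vertical axis, percent) against its position from the start of the gene (horizontal axis, kb, in the direction of transcription), in 1 panel for each factor. Blue bars are the mean over the control libraries that called the region and orange bars the mean over the NRF2 siRNA libraries that called it, bar length is the width of the region (drawn with a minimum length) and grey is the gene body. NKX2-1 has no region, SOX2 has 1, and TP63 has 15, the strongest of them at and beyond its 3′ end.

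The question of which factors were active was put to the coding starts. A gene was counted as acetylated when a coding start lay in a region called in all 3 control libraries. By this rule 7 of the 8 factors were acetylated and NKX2-1 was not, where 45.3% of 19807 coding genes were. The rule is generous, since a merged region can reach over a start that a given library's own peak does not. When a peak of every control library had to lie over one and the same start, a rule chosen after seeing the data, 4 factors passed, FOXA1, FOXA2, SOX9 and HNF4A, where 37.3% of coding genes did. The starts of GATA6, SOX2 and TP63 lay under a peak of 1 of 3 control and 1 of 3 NRF2 siRNA libraries, and the other libraries had a peak beside the start or none. At a −log10 q-value of at least 5, 3 factors remained acetylated by the first rule, FOXA1, FOXA2 and HNF4A, where 26.2% of coding genes did. GATA6, SOX2 and SOX9 were then called in some libraries, and TP63 joined NKX2-1 with no start in a region.

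NKX2-1, on chromosome 14 from 36985597 to 36990354, had no region in its body or in the 50 kb on either side. Of 20163 coding genes, 10.8% had no region in such a window. The nearest region lay 60.2 kb from its outermost start, at chromosome 14, 37050535 to 37051654. Control replicate 3 alone called it, at a percentile of 11.5. None of the 4 annotated coding starts lay under a peak in any of the 6 libraries.

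FOXA1, on chromosome 14 from 38058757 to 38065264, had the widest region of the 40, an 11425 bp stretch (38054986 to 38066410) that covered the gene and the start of its neighbour TTC6. Its percentiles were 87.8, 70.1 and 80.9 in the control libraries and 81.0, 59.7 and 70.6 in the NRF2 siRNA libraries. The 2 groups overlapped, and each NRF2 siRNA library was lower than the control library of its number. The peaks of the libraries covered 10788 to 11410 bp of it, so that the width hardly varied. Of the regions over acetylated starts, 93.5% were no wider.

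A further 4 regions lay on the 3′ side of FOXA1. The strongest, 10782 bp from the FOXA1 start (38051512 to 38053672), stood at 84.9, 71.1 and 79.1 in control and 73.8, 73.2 and 78.7 in NRF2 siRNA libraries, which overlapped. A region over exons of the next gene, MIPOL1 (38014341 to 38019878), stood at 74.5, 68.03 and 77.3 against 61.1, 57.5 and 63.0. There every NRF2 siRNA library was below every control library. A region in a MIPOL1 intron (38034618 to 38038094) ranged from 23.5 to 74.9 over the 6 libraries, and control replicate 1 alone called the last.

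FOXA2, on chromosome 20 from 22561636 to 22566093, carried a start region of 5411 bp (22562564 to 22567974) with the highest control mean of the 8 factors. The control libraries stood at 76.9, 86.5 and 92.8 and the NRF2 siRNA libraries at 46.1, 85.3 and 86.1. NRF2 siRNA replicate 1 lay apart from the other libraries, and in it the peak was 1194 bp wide against 3583 to 5411 bp in the controls. On the 3′ side a pair of weaker regions lay in or at the start of LINC00261, a long noncoding RNA gene, each called in no replicate 1 library. On the other side, 14015 bp upstream of the start, a region of 3267 bp (22580108 to 22583374) lay in the noncoding gene LNCNEF. It stood at 5.63, 35.4 and 7.70 in the control libraries and 27.6, 69.8 and 57.4 in the NRF2 siRNA libraries. It was higher with NRF2 siRNA in 3 of 3 pairs, with 1 control library above the lowest NRF2 siRNA library. A region 30881 bp upstream (22596974 to 22599897), named here after its values were seen, was called in control replicate 2 at 0.550 and in the NRF2 siRNA libraries at 0.331, 27.4 and 9.18.

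GATA6, on chromosome 18 from 19749550 to 19782491, had a start region of 1567 bp (19749041 to 19750607) that also held the start of the antisense RNA gene GATA6-AS1. The control libraries gave 27.8, 47.3 and 49.0, and NRF2 siRNA replicates 2 and 3 gave 43.1 and 42.4. NRF2 siRNA replicate 1 called no peak there. The peaks were short, 350, 353 and 1567 bp in the control libraries, and 20.3% of the regions over acetylated starts were no wider. The other 2 regions of the window were each called in 2 libraries, with percentiles from 6.97 to 24.3.

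SOX2, on chromosome 3 from 181429713 to 181432224, had a single region in its window, 6608 bp over the whole gene (181427588 to 181434195). The gene lies inside the noncoding gene SOX2-OT, one of whose starts fell in the same region. The control libraries stood at 14.1, 13.3 and 47.4 and the NRF2 siRNA libraries at 8.44, 31.1 and 34.3. Control replicate 3 was the highest and NRF2 siRNA replicate 1 the lowest, and the groups overlapped. The merged region was wide, with 86.3% of acetylated start regions no wider, and that width came mainly from control replicate 3. Peaks covered 2003, 2833 and 6346 bp of it in the control libraries and 1243, 2881 and 3691 bp in the NRF2 siRNA libraries. Its strength was low, with 1.11% of acetylated start regions at or below its control mean.

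SOX9, on chromosome 17 from 70117161 to 70122557, carried a start region of 3210 bp (70115225 to 70118434). It stood at 52.4, 59.7 and 73.4 in the control libraries and 37.6, 45.9 and 47.2 in the NRF2 siRNA libraries, and all 3 NRF2 siRNA libraries lay below all 3 controls. The strongest region of the 40 lay 27659 bp downstream of the start, outside coding genes (70144820 to 70150294). Its percentiles were 92.9, 93.0 and 92.5 in control and 85.9, 90.7 and 91.7 in NRF2 siRNA libraries, a narrow range that again did not overlap. Between them, 13527 bp from the start (70130688 to 70133884), a region stood at 39.1, 28.3 and 35.8 against 20.5, 44.2 and 43.1.

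TP63, on chromosome 3 from 189349178 to 189615065, has an upstream set of starts that gives the TA proteins, with the transactivation domain, and an internal set that gives the ΔN proteins without it, the form of basal epithelium. The TA starts lay in a region of 2449 bp (189346916 to 189349364) called in all 3 control libraries at 34.4, 39.2 and 65.6. With NRF2 siRNA, replicate 3 called it at 24.0, below every control, and replicates 1 and 2 did not call it. The ΔN starts, from 189507448 to 189507590, lay under no peak in any library. The nearest region was 14.6 kb from the first of them, upstream, in an intron (189489707 to 189492818). It stood at 46.3, 51.4 and 69.8 in control and 14.2, 6.71 and 29.9 in NRF2 siRNA libraries, again without overlap.

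The 3′ end of TP63 held the strongest regions of that window. A region over its 3′ end (189613999 to 189623083, 9085 bp) stood at 59.1, 76.0 and 66.0 in control and 44.7, 57.7 and 64.6 in NRF2 siRNA libraries, which overlapped. Beyond the gene, a region of 9336 bp (189653450 to 189662785) stood at 59.7, 50.6 and 51.9 against 63.1, 68.6 and 73.8, with all 3 NRF2 siRNA libraries above all 3 controls. TP63 thus had acetylated regions reaching the TA starts, along introns and at its 3′ end in these lists, and had no peak at the ΔN start. The TA starts themselves lay under a peak in 1 of 3 control and 1 of 3 NRF2 siRNA libraries.

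HNF4A, on chromosome 20 from 42984339 to 43061485, has a distal promoter (P2), used in stomach and pancreas, and a proximal one (P1), used in adult liver. Both were acetylated. The P2 starts lay in a region of 1765 bp (42983545 to 42985309) at 30.3, 47.5 and 65.8 in the control libraries and 66.3 and 55.6 in NRF2 siRNA replicates 2 and 3, with no peak in replicate 1. The P1 starts lay in a region of 10426 bp (43021331 to 43031756) at 56.0, 51.4 and 66.9 in control and 24.3, 52.6 and 57.8 in NRF2 siRNA libraries. The groups overlapped at both. Peaks covered 9324 to 10202 bp of the P1 region in the controls and 1463, 5961 and 9338 bp in NRF2 siRNA replicates 1, 2 and 3. An intronic region between them (42997991 to 43000977) stood at 47.1, 73.8 and 81.2 against 22.7, 76.1 and 75.6.

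Ordered by the mean over the control libraries, the strongest start regions ran from FOXA2 (85.4 ± 8.02, SD, n = 3) through FOXA1 (79.6 ± 8.92), SOX9 (61.8 ± 10.6), HNF4A at P1 (58.1 ± 7.95), TP63 (46.4 ± 16.8) and GATA6 (41.4 ± 11.8) to SOX2 (24.95 ± 19.5). Each neighbour in that order overlapped the next in range. Within libraries, FOXA1 stood above SOX9, HNF4A above TP63 and GATA6 above SOX2 in 3 of 3 controls, while the other neighbouring pairs held their order in 2 of 3. Against the start regions of the 8982 acetylated coding genes, 78.3% lay at or below FOXA2 and 67.2% at or below FOXA1. The share was 34.9% for SOX9, 29.0% for HNF4A, 13.7% for TP63, 8.79% for GATA6 and 1.11% for SOX2. FOXA1 and FOXA2 were thus the factors at or above the middle of the acetylated genes, and the others lay in the lower part.

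**Figure D2:**
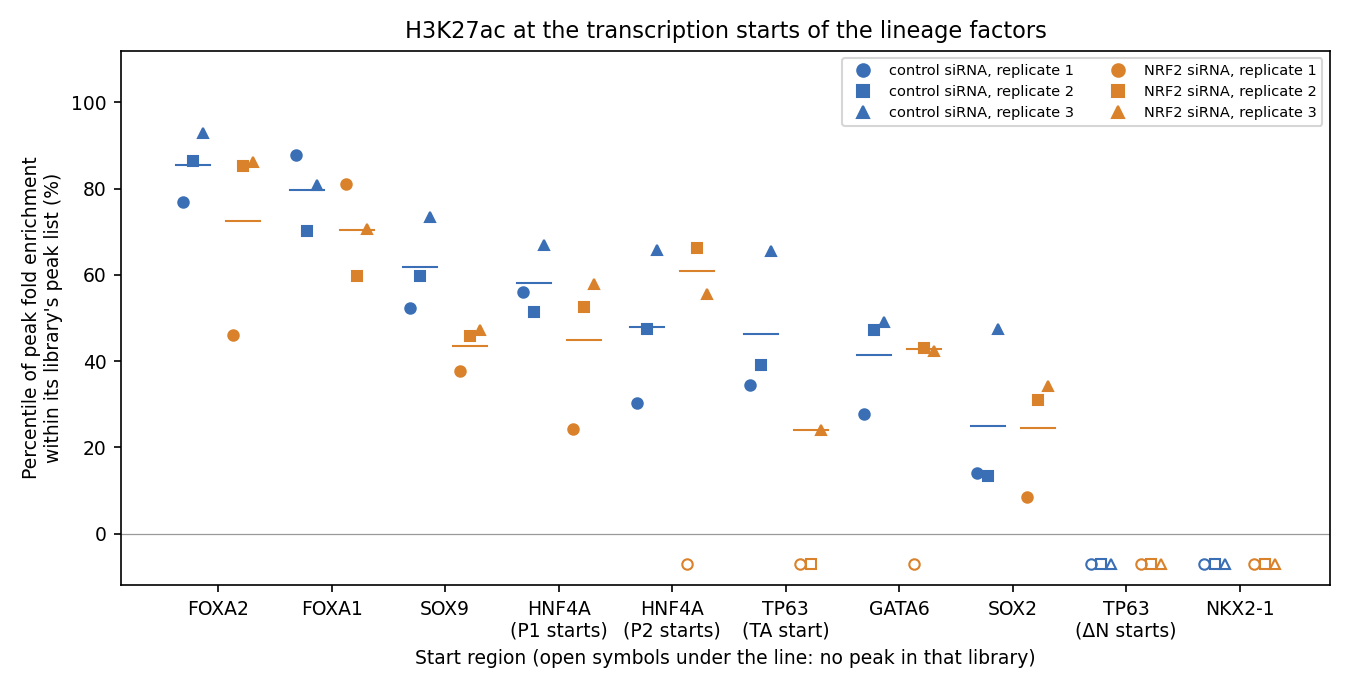
Percentile of the fold enrichment within the library's own list (vertical axis, percent) for each start region of the factors (horizontal axis). Each symbol is 1 library, blue for control and orange for NRF2 siRNA, with the shape giving the replicate, lines are means over the libraries with a peak, and open symbols under the zero line are libraries with no peak. FOXA2 and FOXA1 are highest, and SOX9 and the region reaching the TA starts of TP63 separate by group. NKX2-1 and the ΔN starts of TP63 have no peak in any of the 6 libraries.

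The change with NRF2 siRNA was tested region by region. Each region called in at least 3 libraries (32673 in all, 33 of the 40) was given a score in each library, its rank among these regions turned into a normal quantile, with uncalled regions at the tied lowest rank. The scores were compared with limma, with no term for the replicate, and adjusted over all 32673 regions by the Benjamini-Hochberg method. Of the 33 regions, 1 was lower and 0 were higher at an adjusted p below 0.05, where 3.39% of all regions tested were lower and 2.01% higher. Without adjustment 4 of the 33 had a p below 0.05, against 22.5% of all regions. The score was lower in 19 and higher in 14, with a median change of -0.12 against 0.02 over all regions tested. The best start regions of all coding genes also leaned lower, with 57.8% lower and a median of -0.06. No region of the 40 had a peak throughout one group and nowhere in the other, where 2.27% of regions were so in control alone and 0.83% in NRF2 siRNA alone.

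The region that passed was the one reaching the TA starts of TP63, and its score changed by -1.10 (SE 0.26, adjusted p = 0.0448, limma). A peak lay over those starts themselves in 1 of 3 control and 1 of 3 NRF2 siRNA libraries, so the score mostly reflects peaks beside them. The score of the region was lower in 3 of 3 pairs, by changes of -0.81, -1.36 and -1.12. The region met the filter of 3 calling libraries through the control group, where it is high, and 2 NRF2 siRNA libraries without a peak entered at the tied lowest rank. With every merged region tested, and so no filter, the adjusted p was 0.0566 and the call was lost. The call was lost without control replicate 1, 2 or 3 (adjusted p = 0.113, 0.141 and 0.211) and without NRF2 siRNA replicate 2 or 3 (0.189 and 0.106), and it held without NRF2 siRNA replicate 1 (0.0348). The intronic region upstream of the ΔN starts changed by -0.82 (SE 0.27, adjusted p = 0.115). That region was called in all 6 libraries, and in a fit restricted to such regions it changed by -1.37 (SE 0.30) with an adjusted p of 0.0408.

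Replicate numbers paired the libraries, and a fit with the replicate as a block called 2 more regions, both upstream of FOXA2 and both higher with NRF2 siRNA. The region at 14015 bp changed by 1.02 (SE 0.33) with an adjusted p of 0.106 in the fit without the block and 0.0314 with it. The region at 30881 bp changed by 0.79 (SE 0.37) with adjusted p of 0.244 and 0.0294. It met the filter through the NRF2 siRNA group, where it is high, and 2 control libraries entered at the tied lowest rank. With the block, 1 of the 33 was lower and 2 were higher, where 6.62% of all regions tested were lower and 5.72% higher. The FOXA2 start region itself went the other way, at -0.31 (SE 0.25, adjusted p = 0.511), and did not pass.

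The start regions of the other factors did not pass in either fit. FOXA1 changed by -0.24 (SE 0.30, adjusted p = 0.694), SOX9 by -0.37 (SE 0.22, adjusted p = 0.350) and GATA6 by -0.30 (SE 0.23, adjusted p = 0.502). HNF4A changed by -0.17 at P1 (adjusted p = 0.670) and -0.16 at P2 (adjusted p = 0.814), and SOX2 by 0.14 (adjusted p = 0.793). The strongest region of all, downstream of SOX9, changed by -0.14 (SE 0.19, adjusted p = 0.716). With standard errors of this size a change of the order of those estimates was not detectable. Among the 18 regions called in all 6 libraries, the percentiles of the groups did not overlap in 5. They were lower with NRF2 siRNA in 4 (2 of SOX9, 1 each of FOXA1 and TP63) and higher in 1, beyond the 3′ end of TP63, where 11.3% of such regions were lower and 8.85% higher.

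**Figure D3:**
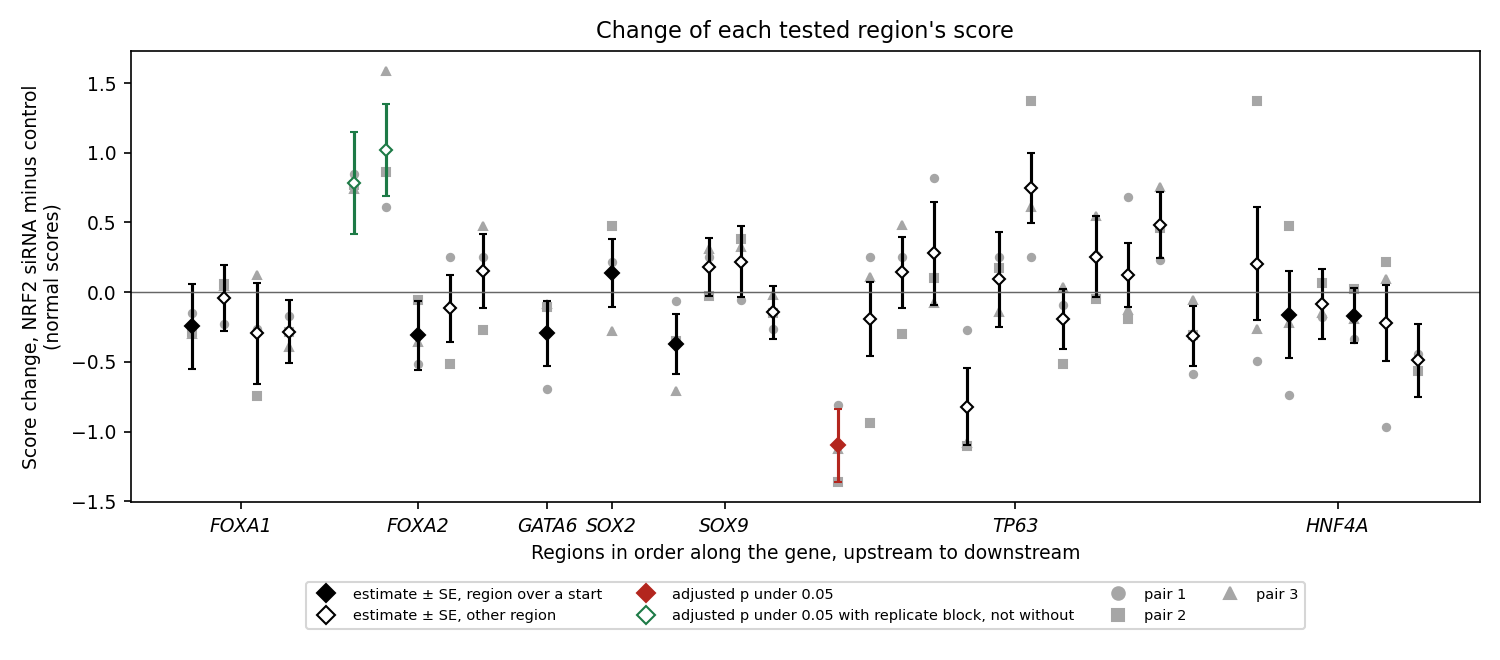
Change of the score, NRF2 siRNA minus control (vertical axis, normal scores), for the 33 tested regions, grouped by factor and ordered from upstream to downstream. Diamonds are limma estimates with their SE, filled for regions over a start, and grey symbols are the 3 replicate pairs. The red point is the region reaching the TA starts of TP63, at -1.10. The green points are the regions upstream of FOXA2 at 0.79 and 1.02, which passed with the replicate block and did not pass in the fit without it.

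The pair that received siRNA 28 was compared with the pairs that received siRNA 30 as a term in the blocked limma fit. None of the 33 regions passed an adjusted p below 0.05, and 4 had an unadjusted p below 0.05, where 0% and 15.4% of all regions tested did so. This term has little to stand on, since siRNA 28 was used in replicate 1 alone.

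The antioxidant response element is the sequence that NRF2 binds with a small MAF partner, and its core TGACNNNGC was searched on both strands of the 33 tested regions. It can overlap the AP-1 site TGANTCA, which shares its first letters. At least 1 core was found in 24 of the 33 regions (72.7%). Tested regions of like length, within 10% of each, held one in 65.2% on average. Density was 0.42 per kb in the 33 regions and 0.39 per kb in all regions tested. AP-1 sites were found in 24 of the 33 (72.7%, against 68.7% of regions of like length), forkhead sites TGTTTAC in 17 (51.5% against 39.4%) and GATA sites AGATAA in 27 (81.8% against 72.8%). These shares describe letters in wide regions and say nothing about binding.

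The cores are shown for the TA start region of TP63 and the FOXA2 region at 14015 bp, which passed in one of the fits, with the core in capitals, 10 bases on either side and the strand on which it reads.
TP63 TA start region, chr3:189347140-189347168, plus strand: tcagtctgggTGACAGTGCaagaagctgt
FOXA2 upstream region, first match, chr20:22580491-22580519, minus strand: cactttgggaTGACAAAGCgggcagatca
FOXA2 upstream region, second match, chr20:22583178-22583206, plus strand: tagactcaaaTGACCCAGCtttgccccag

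The TA start region of TP63 held 1 core, where 61.0% of 3646 regions of like length held at least 1. The FOXA2 region at 14015 bp held 2 (70.2% of 3007). The FOXA2 region at 30881 bp held none, where 66.3% of 3266 held one. The region downstream of SOX9 held 2 (86.1% of 1633).

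The length under peaks in each window was summed as a second measure that uses no percentile. FOXA1 had 23.5, 19.1 and 18.4 kb under peaks in the control libraries and 16.6, 16.8 and 17.7 kb in the NRF2 siRNA libraries, without overlap. The means were 20.3 ± 2.75 and 17.0 ± 0.57 kb (SD, n = 3), with p = 0.1 in a two-sided exact permutation test, which is the smallest p that 3 against 3 libraries allow. Over the 7 windows with a region, the adjusted p was 0.7. HNF4A had 15.3 ± 1.96 and 9.62 ± 6.22 kb (exact p = 0.2, adjusted p = 0.7), and its NRF2 siRNA replicate 1 stood at 2.62 kb. TP63 had 24.1 ± 10.8 and 16.9 ± 7.51 kb (exact p = 0.4) and SOX9 9.53 ± 3.19 and 7.89 ± 3.40 kb (exact p = 0.5). FOXA2 had 7.68 ± 2.58 and 8.19 ± 3.97 kb, SOX2 3.73 ± 2.31 and 2.61 ± 1.25 kb and GATA6 1.20 ± 0.88 and 1.02 ± 0.89 kb. In 5 of the 7 windows (GATA6, SOX2, SOX9, TP63 and HNF4A) the longest list, control replicate 3, had the greatest length and the shortest list, NRF2 siRNA replicate 1, the smallest. With lists cut to equal length the difference was -7.85 kb in TP63, -5.99 kb in HNF4A and 0.62 kb in SOX9, against -7.27, -5.69 and -1.64 kb with the full lists.

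**Figure D4:**
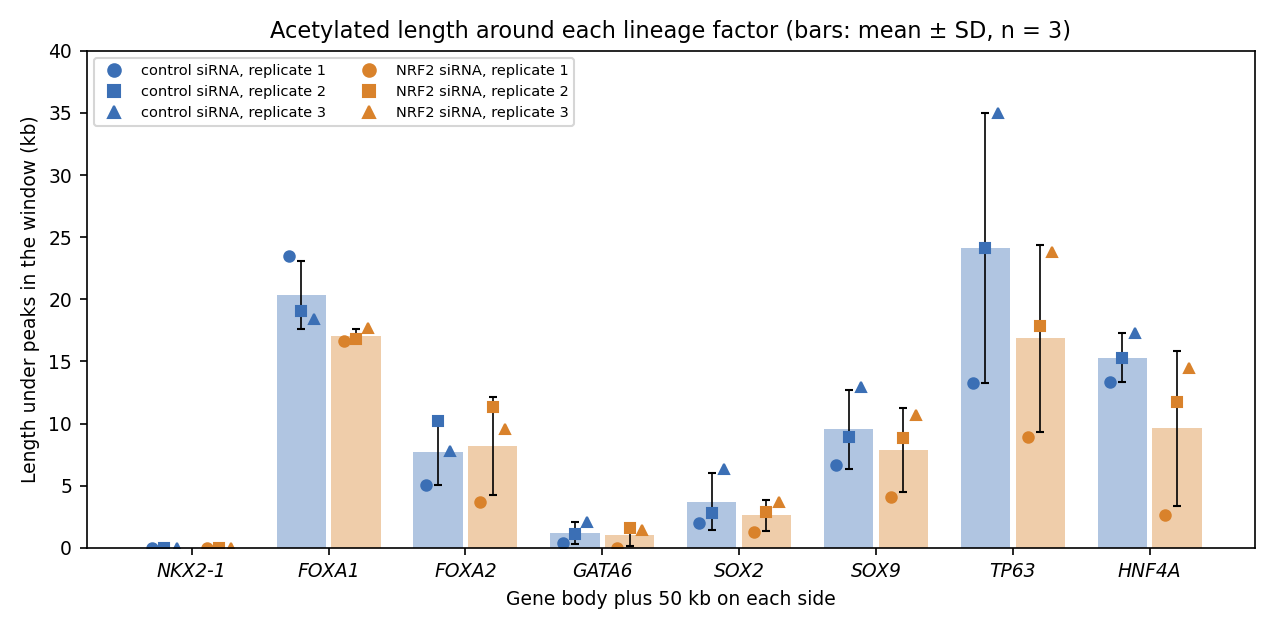
Length under peaks (vertical axis, kb) in the body of each factor plus 50 kb on each side (horizontal axis). Bars are means with the SD of 3 libraries, and symbols are single libraries, blue for control and orange for NRF2 siRNA. NKX2-1 is at 0 kb in all 6 libraries, and FOXA1 is the window in which every NRF2 siRNA library lies below every control library.

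Other regulators and the target genes of these factors were read from lists of known genes. Of 39 other lung and foregut regulators, 18 were acetylated at a start, 3 were so in part of the libraries and 18 had no region over a start (45.3% of coding genes were acetylated). Among the acetylated ones, ELF3, an epithelial ETS factor, stood at 96.6 to 98.0 and SPDEF, a factor of mucous cells, at 95.7 to 97.6. Both values come from the highest peak of a wide merged region, and that peak need not lie over the start. The ELF3 region ran from 201974492 to 202038691 on chromosome 1 and the SPDEF region from 34510097 to 34525567 on chromosome 6. Those with no region over a start included CDX1 and CDX2 of the intestine, FOXJ1 of ciliated cells and NEUROD1 of neuroendocrine cells.

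Of 17 alveolar and airway targets, many of which depend on NKX2-1 in lung, 2 were acetylated at a start, LPCAT1, an enzyme of surfactant lipid synthesis, and MUC1, a membrane mucin. LPCAT1 ranged from 24.1 to 72.2 over the control libraries and MUC1 from 65.5 to 92.7, and neither had an own peak of every control library over one start. ABCA3 was acetylated in part of the libraries. The remaining 14 had no region over a start, the surfactant genes SFTPA1, SFTPA2, SFTPB, SFTPC and SFTPD, the secretory genes SCGB1A1, SCGB3A1 and SCGB3A2 and NAPSA among them. Regions did lie near some, 6 bp from the SFTPD start and 1494 bp from the SFTPC start for example. An uncovered start thus does not mean an unmarked locus. When regions within 1 kb of a start were counted, 3 of the 17 were acetylated, where 46.9% of coding genes were. SFTPD, ABCA3 and AGER were then acetylated in part of the libraries, and 11 had no such region.

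Of 20 gastrointestinal and liver targets, 8 were acetylated at a start, where 45.3% of all coding genes were. TFF1, VIL1, MUC13, ALB and SERPINA1 were acetylated in part of the libraries, and 7 had no region over a start, TFF2, TFF3, CTSE, GKN1, APOA1, APOB and TTR. MUC5AC, the gastric and airway mucin, stood at 99.9 in all 3 control libraries, and AMBP, a plasma protein of liver, at 99.5 to 99.7. The 3 fibrinogen genes FGA, FGB and FGG, the plasma protein APOH, the adhesion protein CDH17 and the lectin LGALS4 were the other acetylated ones. Of 13 basal and squamous targets, the group that TP63 governs in basal cells, 2 were acetylated, KRT15 and TRIM29, with 10 in no region, KRT5, KRT6A and KRT14 among them. With a stricter −log10 q-value of at least 5 the counts for the 4 lists were 13 of 39, 1 of 17, 6 of 20 and 0 of 13, where 26.2% of coding genes were acetylated. When an own peak of every control library had to lie over the same start, they were 14 of 39, 0 of 17, 7 of 20 and 2 of 13. By that rule 37.3% of coding genes passed. The lists were not tested against each other.

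**Figure D5:**
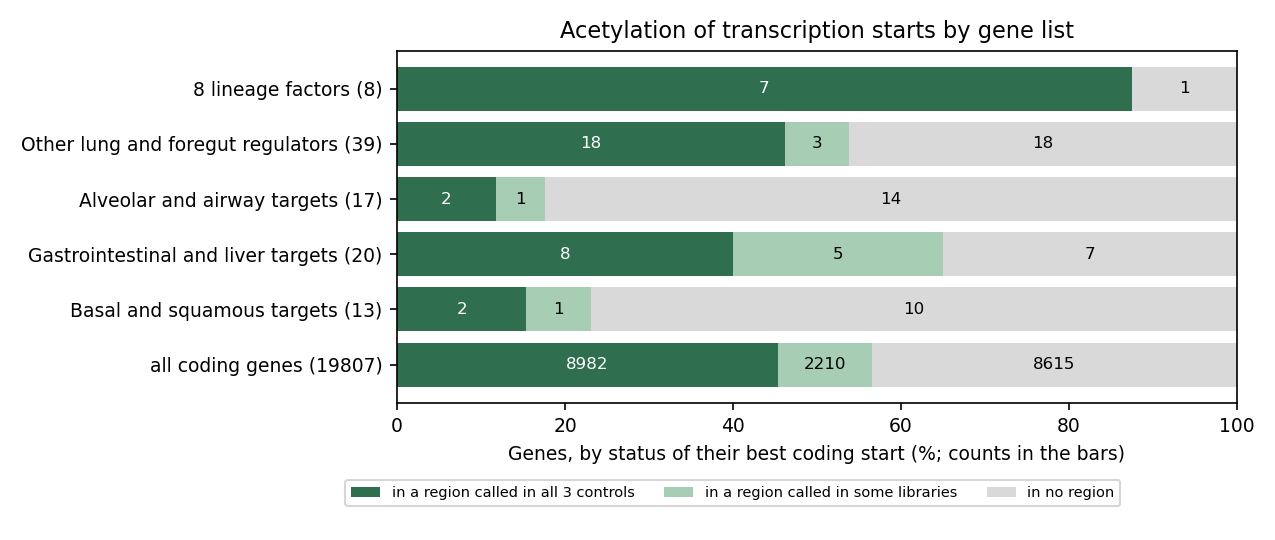
Share of genes (horizontal axis, percent) by the status of their best coding start, for the factors, 4 lists and all coding genes, with counts in the bars. Dark green is a start in a region called in all 3 control libraries, light green a start in a region called in part of the libraries, and grey a start in no region. The alveolar and airway targets have 2 of 17 acetylated, the gastrointestinal and liver targets 8 of 20, and all coding genes 8982 of 19807.

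Of the 36 start regions of these 4 lists that were tested with limma, 0 passed an adjusted p below 0.05 in either direction. Of the best start regions of coding genes, 0.829% were lower and 0.172% higher at that threshold. Without adjustment 4 of the 36 had a p below 0.05, where 22.5% of all regions tested, at starts or not, did. The unadjusted share over start regions alone is not given here. The nearest to the threshold was GATA3, a zinc finger factor, with control libraries at 9.14, 12.8 and 37.3 and NRF2 siRNA libraries at 58.5, 64.0 and 53.6. It changed by 0.98 with an adjusted p of 0.0556, and it is named here after its values were seen.

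Start regions were also set beside one another by the mean absolute difference of their percentiles over the 6 libraries, among 40 genes of the lists. FOXA2 was closest to HNF4G, a relative of HNF4A, at 5.19 percentile points, and to CDH17 at 8.65. FOXA1 was closest to ETV4 (9.56) and FGA (9.65), and HNF4A to KRT15 (6.41) and FOXP1 (11.4). SOX9 was closest to KRT15 (7.06) and FGG (11.3), and GATA6 to FOXP1 (12.1) and KRT15 (12.1). SOX2 was closest to DSC3 (10.5) and FOXP2 (10.8). TP63 had the least close neighbours, SOX17 (16.4) and TRIM29 (17.1). A library without a peak entered at the lowest value of the scale. The libraries share their list lengths across genes, so that these figures are a description.

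The labelled cell type was checked on marker genes. Of 7 epithelial markers 6 were acetylated at a start, KRT7, KRT8, KRT18, EPCAM, CDH1 and CLDN4, and KRT8 stood above 99.7 in every library. KRT19 had no region over its start, and the nearest lay 875 bp away. Fibroblast markers were acetylated in 0 of 6, endothelial markers in 0 of 4 and neuroendocrine markers in 0 of 5. The fibroblast marker COL1A1 was acetylated in part of the libraries, at 45.5 in control replicate 3 and 47.0 in NRF2 siRNA replicate 3. A region lay 156 bp from the start of the neuroendocrine marker SYP. Of 6 blood cell markers 1 was, CD14.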

How the data were processed

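H3K27ac was measured by ChIP-seq in 3 control siRNA and 3 NRF2 siRNA libraries of A549 cells, which the study calls biological replicates. The 2 input libraries were not analysed here. Per the submitters' processing notes, the authors used bcl2fastq 2.15.0, cutadapt 1.15, Bowtie2 2.2.6 (hg19), SAMtools and MACS2 2.1.0.20151222, with broad peaks called in each library. Which background sample each call used is not given in the sources used here. For each peak the deposited lists hold an integer score, the fold enrichment (a ratio to background), and the −log10 of its p-value and of its q-value. They hold no read counts, so the reads behind a single value are unknown. The study's reporting summary does give the mapped reads of each library, which were fewest in the replicate 1 pair. Of 202238 peaks, 136 lay on names not in the GRCh37 sequence.

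Percentiles and normal scores were taken within each list, because lists differ in length. Scores were compared with limma 3.58.1 in R 4.3.3, tested on simulated data, and other steps used Python 3.11.15, scipy 1.17.1 and pysam 0.24.0. Starts came from GENCODE lifted to GRCh37. A few items of the lists are not reported here by name. SFTA3 and PECAM1 were not found as coding genes there and were not used. The factors, lists and tests were chosen with earlier results of these data known. Regions were named where they lay over a start, were the strongest away from one, passed the threshold or were called in one group alone, and for each factor the 2 nearest list genes. Regions without overlap and their neighbours were added after their values were seen. Replicate numbers come from the sample titles, and deviations from the group means correlated at 0.40, 0.20 and 0.36 within numbers. The main limma fit and the exact tests printed here did not use this pairing. It entered through the fits with the replicate block and the counts of pairs. Alternatives were the replicate block, lists of equal length (23885 peaks), a −log10 q-value of at least 5, merging over 1 kb, flanks of 10 and 100 kb, other score and variance settings and leaving out each library. Start status was also counted for regions within 1 kb of a start.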

Additional observations from a re-analysis of the deposited data

How the results depend on the processing

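A single region passed the test in the fit as reported, and that count rests on the settings. Regions of the 8 factors called lower numbered 0 to 2 when each library was left out in turn (2 without NRF2 siRNA replicate 1 and 0 without each of the others), 2 with the replicate block and equal list lengths together, 0 at a −log10 q-value of at least 5 and 0 with every merged region tested. Regions called higher numbered 2 with the replicate block and 1 with equal list lengths, with or without the block. With the block, 6.62% of all regions tested were lower and 5.72% higher. The shares of all regions at the other alternative settings are not given here, so those counts have no background beside them. The region reaching the TA starts of TP63 gave an adjusted p of 0.0141 with the block and 0.0566 with every merged region (limma). The FOXA2 region 14015 bp upstream reached 0.0200 with equal list lengths and 0.0070 with the block besides, and 0.145 to 0.317 with a library left out. The intronic TP63 region upstream of the ΔN starts was called lower with the block and equal list lengths together (adjusted p = 0.0377), without NRF2 siRNA replicate 1 (0.0237) and over regions called in all 6 libraries, a set that leaves out the TA start. The block changed no further call of a region of the factors.

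Signs were less stable where changes were small. The score change of the SOX2 region was -0.027 over regions called in all 6 libraries, and -0.13 to 0.34 with a library left out. At a −log10 q-value of at least 5, HNF4A changed by 0.38 at P2 and 0.095 at the intronic region, and with a library left out by -0.42 to 0.18 and -0.25 to 0.12. The FOXA1 region 10782 bp from the start ranged from -0.17 to 0.15. With a library left out, the percentile difference (NRF2 siRNA minus control) at the start ranged from -19.7 to 0.28 points for FOXA2 and from -6.19 to 10.9 for SOX2.

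Differences in length under peaks (NRF2 siRNA minus control) ranged with a library left out from -1.05 to 2.74 kb for FOXA2, -0.61 to 0.32 kb for GATA6, -1.98 to 0.19 kb for SOX2 and -3.07 to 0.25 kb for SOX9. They stayed negative for TP63 (-12.7 to -1.84 kb, the last without control replicate 3), HNF4A (-8.12 to -2.19 kb, the last without NRF2 siRNA replicate 1) and FOXA1 (-4.27 to -1.74 kb, the last without control replicate 1). FOXA2 gave -1.84 kb with 10 kb flanks, GATA6 0.89 kb with 100 kb flanks, and SOX9 0.62 kb with equal list lengths and 1.15 kb at a −log10 q-value of at least 5. Regions called throughout one group and never in the other numbered 1 in control alone with equal list lengths and 1 with 100 kb flanks, and 0 to 1 in either group with a library left out. The shares of all regions at these settings are not given here, so these counts too have no background beside them. Acetylated starts fell from 7 factors to 6 with equal list lengths (SOX2 was then called in part), 3 at that q-value and 4 with an own peak over one start. Of all coding genes, 45.3% were acetylated by the first rule, 41.5% with equal list lengths, 26.2% at that q-value and 37.3% with an own peak. At that q-value alveolar and airway targets numbered 1 and basal and squamous targets 0, or 1 with equal list lengths.

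For single regions, 179 further values kept their sign and stayed on the same side of 0.05. A count that stayed the same can still stand for another region. The cause of these changes was not tested. List length, which limits every absence, was lowest in the replicate 1 pair.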
